A study of Mus musculus with 14 samples.

Results

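The genes described here are the matrix metalloproteinases (Mmp genes), the ADAMTS proteases (Adamts genes) and the tissue inhibitors of metalloproteinases (Timp genes) of mouse adipose tissue. They were taken by name alone: each gene of the deposited table called Mmp with a number and an optional a or b, Timp with a digit, or Adamts with a number. The rule found 46 genes among 54955 symbols or unnamed IDs, 23 Mmp genes, 4 Timp genes and 19 Adamts genes, each in a row of its own. RNA came from adipose tissue of C57BL/6 mice at 21 weeks of age, in 14 libraries, 7 labelled wild type (WT, replicates 3 to 9) and 7 labelled ko-dectin1 (KO, replicates 1 to 7), and the labels name no other allele, agent or diet. Dectin-1 is a receptor for fungal β-glucans and is encoded by Clec7a. The labels give neither the fat depot nor the targeted part of the gene, and do not say whether each library is a separate animal, so p-values measure the spread between these libraries.

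Both protease families hold a zinc ion at their active site and cut proteins outside the cell. Mmp proteases are made as inactive precursors, and between them they cut collagens, gelatin, proteoglycans and elastin. Adamts proteases trim procollagens, cleave the large proteoglycans aggrecan and versican, or act on microfibrils. Timp proteins block the active site, and Timp2 also forms a complex with the membrane protease Mmp14 that presents the precursor of Mmp2 for activation. In fat these enzymes are known for remodelling the matrix around growing adipocytes. The domains listed in the deposited table follow this division: the matrixin protease domain was listed for 23 of 23 Mmp genes, the reprolysin domain for 19 of 19 Adamts genes, and the inhibitor domain for 4 of 4 Timp genes.

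Values are TPM, a length-scaled share of all transcripts in a library, so levels can be compared between genes, but the number of reads behind them is unknown. Between 13487 and 15562 genes stood at 1 TPM or more in a library. The adipocyte hormone gene Adipoq was at 683 TPM or more in each library, and 9 of 9 adipocyte markers were above 0 in all 14. Clec7a ranged from 4.02 to 10.5 TPM in the libraries labelled KO and from 4.1 to 18.9 TPM in WT, so it does not set the groups apart, and directions below compare the libraries by their labels only. KO replicate 7 and WT replicates 4 and 7 stand apart from the other 11 libraries, with Cd79a, a B-cell receptor subunit, under 10 TPM. In whole tissue, fewer cells of a type and less RNA per cell cannot be told apart.

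The inhibitors and proteases were abundant and uneven. The 4 Timp genes summed to between 85.3 and 515 TPM per library, the 23 Mmp genes to between 85.3 and 318 TPM, and the 19 Adamts genes to between 48.5 and 98.5 TPM. In the Mmp pool, the gelatinase gene Mmp2 and the membrane protease gene Mmp14 together took a median of 50.3% of the summed TPM (range over 14 libraries 40.1% to 59.8%). Timp2, Timp3 and Timp4 together took 93.9% to 99.7% of the Timp pool, and Timp1 the rest. The Adamts pool was led by Adamts10 with a median of 29.8%, Adamts5 with 16.7% and Adamts2 with 15.2%.

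**Figure D1:**
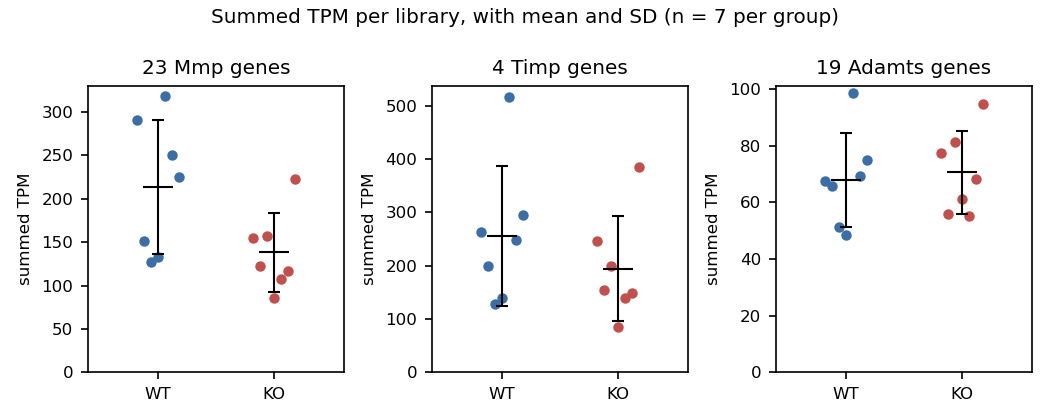
Summed TPM of the 3 gene families, one point per library for WT (blue) and KO (red), with the mean and SD of 7 libraries as a black bar. Mmp sums ran from 128 to 318 TPM in WT and from 85.3 to 223 TPM in KO, Timp sums from 128 to 515 and from 85.3 to 385 TPM, and Adamts sums from 48.5 to 98.5 and from 55.3 to 94.8 TPM, so the ranges of the groups overlap in each panel.

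The summed Mmp level had a median of 123 TPM in KO and 225 TPM in WT, and the summed Timp level a median of 155 TPM against 248 TPM. Adamts sums had nearly the same median, 68.4 TPM in KO and 67.5 TPM in WT. The sum of inhibitors divided by the sum of Mmp proteases had a median of 1.28 in KO (range 1.00 to 1.73) and 1.05 in WT (range 0.908 to 1.62). These sums are descriptions with no test.

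Ordered by mean TPM over all libraries, the 8 highest members were Timp2 (85.5), Timp3 (75.0), Timp4 (61.6), Mmp2 (47.9), Mmp14 (42.4), Mmp3 (24.0), Adamts10 (20.0) and Mmp23 (16.1). Neighbours in this order overlap widely across libraries: Timp2 ranged from 41.0 to 208 TPM, Timp3 from 17.9 to 172 TPM and Timp4 from 13.6 to 169 TPM. The highest values of Timp2, Timp3 and Mmp2 came from WT replicate 7 and that of Timp4 from KO replicate 7, both among the libraries with little Cd79a.

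**Figure D2:**
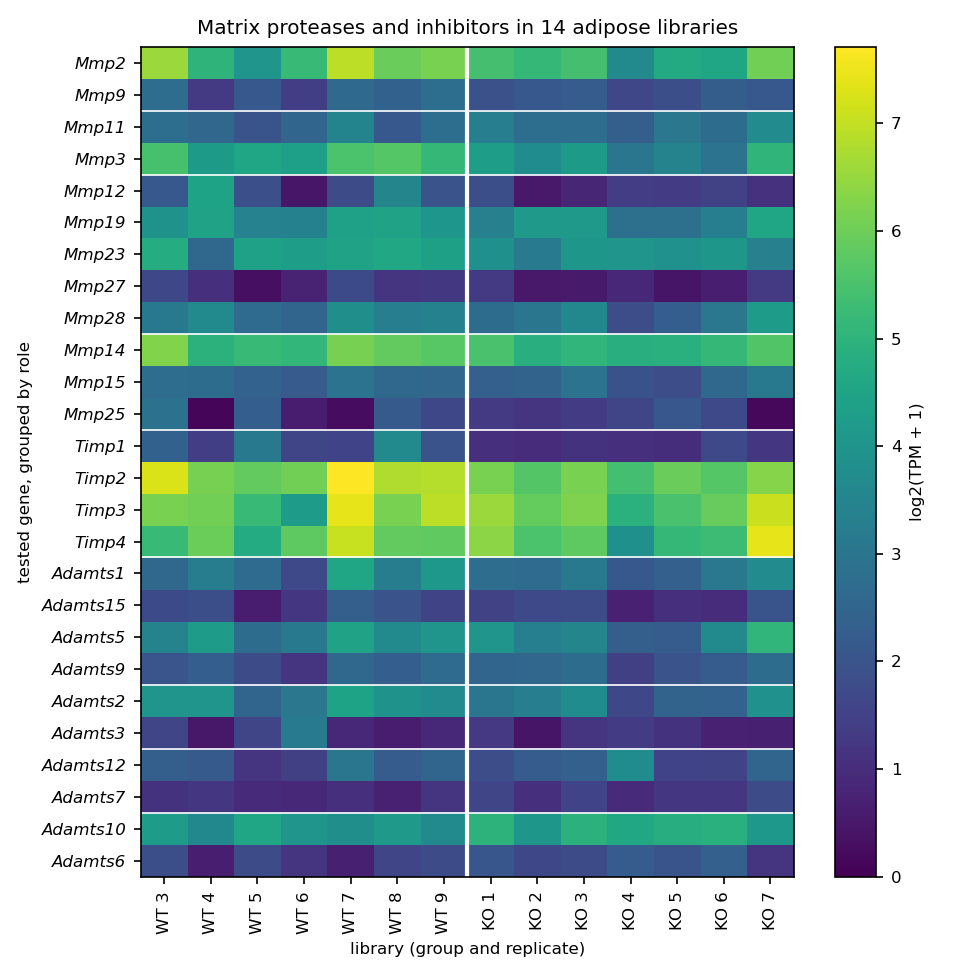
log2(TPM + 1) of the 26 tested members (rows, by role, with white lines between roles) in the 14 libraries (columns, WT left and KO right of the thick line). Timp2, Timp3, Timp4, Mmp2 and Mmp14 have the highest means, though Adamts10 exceeds Mmp2 in KO replicates 4, 5 and 6 and in WT replicate 5, and Timp1 is darker in 6 of 7 KO columns than in any WT column.

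Of the 46 members, 26 reached 1 TPM in 7 or more libraries and were tested with all other such genes, 14719 in all, by limma on log2(TPM + 1). With this test 0 members were called at an adjusted p under 0.05, where 0.0204% of all genes tested were called (3 genes, all lower in KO). At an unadjusted p under 0.05 stood 8 members, 5 with lower values (Mmp3, Timp1, Timp2, Mmp12 and Mmp14) and 3 with higher values (Adamts10, Adamts6 and Adamts7). That is 30.8% of the tested members, beside 11.4% of all genes tested (6.74% lower and 4.67% higher). Of the 26, 20 had lower values in KO (76.9%, beside 45.4% of all genes), and their median log2 fold change was -0.23, beside 0.04 over all genes. Leaving out WT replicate 7 gave a median of -0.11, leaving out KO replicate 4 gave -0.13, leaving out WT replicate 5 gave -0.37, and with no filter on low values it was -0.05 over 44 members. The direction differed by family: 11 of 12 tested Mmp genes and 4 of 4 Timp genes had lower values, but 5 of 10 Adamts genes. The ranges of the groups overlapped for every tested member, as for all but 0.319% of genes.

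Without the 3 libraries with little Cd79a, 25 members were tested, 18 had lower values (beside 51.4% of all genes) and 0 were called. At an unadjusted p under 0.05 stood 6 of them, 5 lower and 1 higher (24.0%, beside 10.3% of all genes). When limma weighted each library by how closely it follows its group, 5 members were called (Mmp3, Timp1, Timp2, Mmp14 lower and Adamts10 higher), but so were 5.59% of all genes (823 of 14719; 3.91% lower and 1.68% higher), with weights from 0.263 for WT replicate 6 to 3.8 for WT replicate 8.

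**Figure D3:**
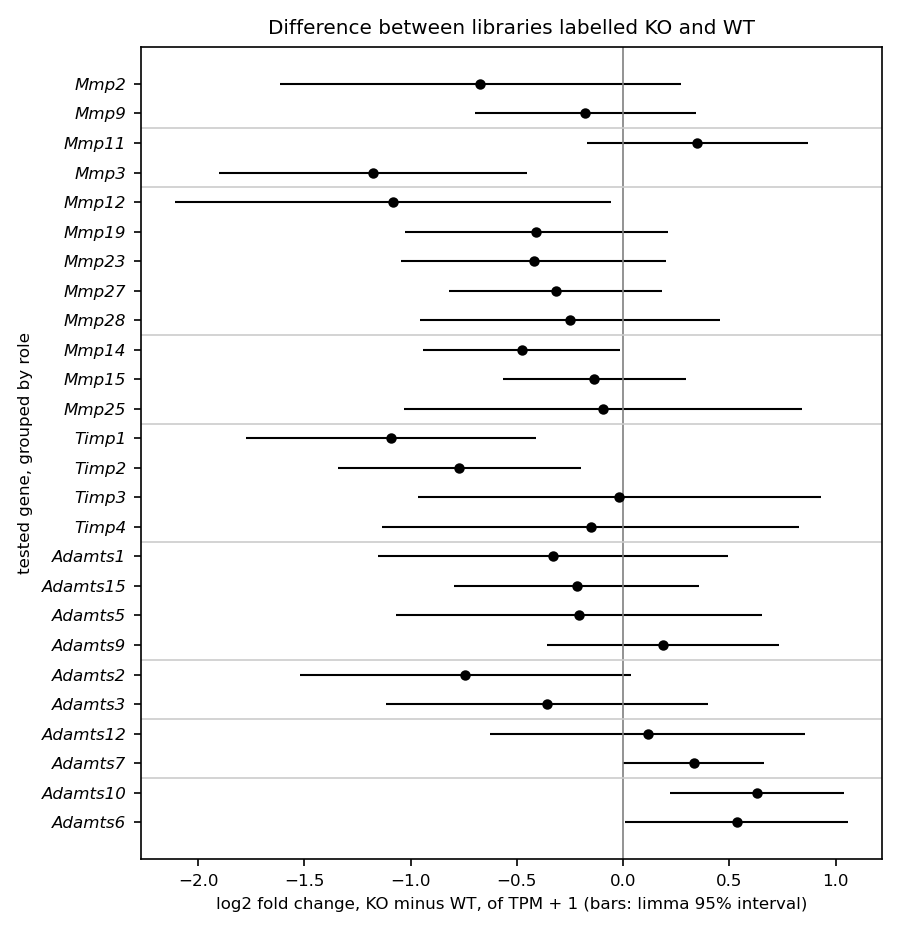
log2 fold change, KO minus WT, of TPM + 1 for the 26 tested members by role, with limma's 95% interval as bars and grey lines between roles. Intervals of Mmp3, Timp1, Timp2, Mmp12 and Mmp14 lie below 0 and those of Adamts10, Adamts6 and Adamts7 above it, before adjustment for the number of genes tested.

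Among the stromelysins, which cut proteoglycans, laminin and other proteases' precursors, Mmp3 (ENSMUSG00000043613) had the smallest limma p of all members, with Timp1 next, while the exact permutation p was smallest for Timp1. Mmp3 stood at 6.63 TPM in the lowest, 12.5 in the median and 31.9 in the highest KO library, and at 17.4, 34.0 and 50.4 TPM in WT. Of the KO libraries, 5 of 7 lay below the lowest WT library, and 4 of 7 WT libraries lay above the highest KO library, which was replicate 7. Its mean was 14.9 ± 8.9 TPM over the 7 KO libraries, beside 33.1 ± 13.5 TPM over the 7 WT libraries (SD). The log2 fold change of Mmp3 was -1.18 ± 0.34 (SE; limma adjusted p = 0.23), and the exact 2-sided permutation p on its log2 values was 0.0087. Without the 3 libraries with little Cd79a the fold change of Mmp3 was -1.43 (limma adjusted p = 0.18). Mmp11, stromelysin-3, was the only tested Mmp gene with higher values in KO, at a mean of 7.10 ± 2.70 against 5.40 ± 2.35 TPM (log2 fold change 0.35 ± 0.24, SE; limma adjusted p = 0.59). Exons of Mmp11 share 155 bases with Chchd10 on the other strand, which reached 165 TPM. The handling of strand is not given, so reads from the shared bases cannot be told apart.

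Mmp3 lies in a row of Mmp genes on chromosome 9, and most of its neighbours were nearly silent. Only genes typed as protein-coding in GENCODE M21 were ordered, so a member of another type would not be counted in the row. Among them, 9 members follow each other there with no other protein-coding gene between them: Mmp13, Mmp12, Mmp1b, Mmp3, Mmp10, Mmp8, Mmp27, Mmp20 and Mmp7. Only 3 of the 9 were tested, Mmp3, Mmp12 and Mmp27, and 5 never reached 1 TPM in any library. Promoters were looked up in the RefSeq table of build GRCm38.p6, which has entries for 32 of 46 members. The 250 bases before the start were searched for TGANTCA, which reads the same on both strands. The 7-letter site of the AP-1 transcription factor has C or G in the middle, so the search was broader than that site. Of 18 Mmp genes with an entry 8 held TGANTCA, of 4 Timp genes 0 and of 10 Adamts genes 0, where 6.75% of the 32851 windows in the table did. A gene was counted if any of its windows held the letters, while the 6.75% counts single windows, so the units differ. Mmp20 was counted through TGAATCA, and the other matches read TGAGTCA or TGACTCA. In the row on chromosome 9, 7 of 9 genes held TGANTCA, so all of the 8 except Mmp1a are neighbours in that row and not separate cases. The stretches of 120 bases just before the start are shown for Mmp3 and for its silent neighbours Mmp10 and Mmp13, with the AP-1 letters in capitals, and for Timp1, whose window had no match. They are on the plus strand of GRCm38.p6, at chr9:7445702-7445821, chr9:7502222-7502341, chr9:7272394-7272513 and chrX:20870046-20870165.
Mmp3: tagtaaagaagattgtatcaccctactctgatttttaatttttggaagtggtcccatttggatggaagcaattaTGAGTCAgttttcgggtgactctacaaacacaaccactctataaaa
Mmp10: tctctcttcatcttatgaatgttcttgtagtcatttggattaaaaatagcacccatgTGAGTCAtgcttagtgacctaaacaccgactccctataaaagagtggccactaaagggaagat
Mmp13: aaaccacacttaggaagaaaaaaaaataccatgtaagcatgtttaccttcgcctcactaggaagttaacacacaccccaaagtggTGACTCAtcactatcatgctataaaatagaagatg
Timp1: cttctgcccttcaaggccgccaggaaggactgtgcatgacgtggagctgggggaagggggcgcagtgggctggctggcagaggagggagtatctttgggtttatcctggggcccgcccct
The site begins 46 bases before the start in Mmp3, 63 in Mmp10 and 35 in Mmp13. Mmp10 reached at most 0.07 TPM and Mmp13 at most 0.33 TPM in these libraries, beside 50.4 TPM for Mmp3, so the same letters stand before genes of very different level. A match of letters is a description and does not show that a factor binds there.

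The parts of the complex that activates Mmp2 had lower means together. Mmp2, the gelatinase that also cuts type IV collagen, stood at 12.0 TPM in the lowest, 34.5 in the median and 66.4 in the highest KO library, and at 15.1, 60.4 and 121 TPM in WT. The groups overlapped for most of their range, and the log2 fold change of Mmp2 was -0.67 ± 0.44 (SE; limma adjusted p = 0.57). Mmp14, the membrane-anchored collagenase that activates it, ran from 27.4 over 32.5 to 48.0 TPM in KO and from 30.1 over 51.3 to 74.5 TPM in WT. For Mmp14, 4 of 7 WT libraries lay above all KO libraries, the log2 fold change was -0.48 ± 0.22 (SE; limma adjusted p = 0.43), and the exact permutation p was 0.062. Timp2, the inhibitor of the complex, ran from 41.0 over 60.3 to 78.0 TPM in KO and from 57.5 over 110 to 208 TPM in WT. Its 4 highest WT libraries (replicates 3, 7, 8 and 9) all exceeded the highest KO library, with a log2 fold change of -0.77 ± 0.27 (SE; limma adjusted p = 0.32; exact permutation p = 0.022). Of the other members with these roles, Mmp9, a gelatinase of neutrophils and macrophages, averaged 3.12 ± 0.63 TPM in KO libraries and 3.94 ± 1.83 in WT libraries (SD, 7 per group). The membrane-type Mmp15 and Mmp25 had log2 fold changes of -0.13 ± 0.20 and -0.09 ± 0.44 (SE).

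**Figure D4:**
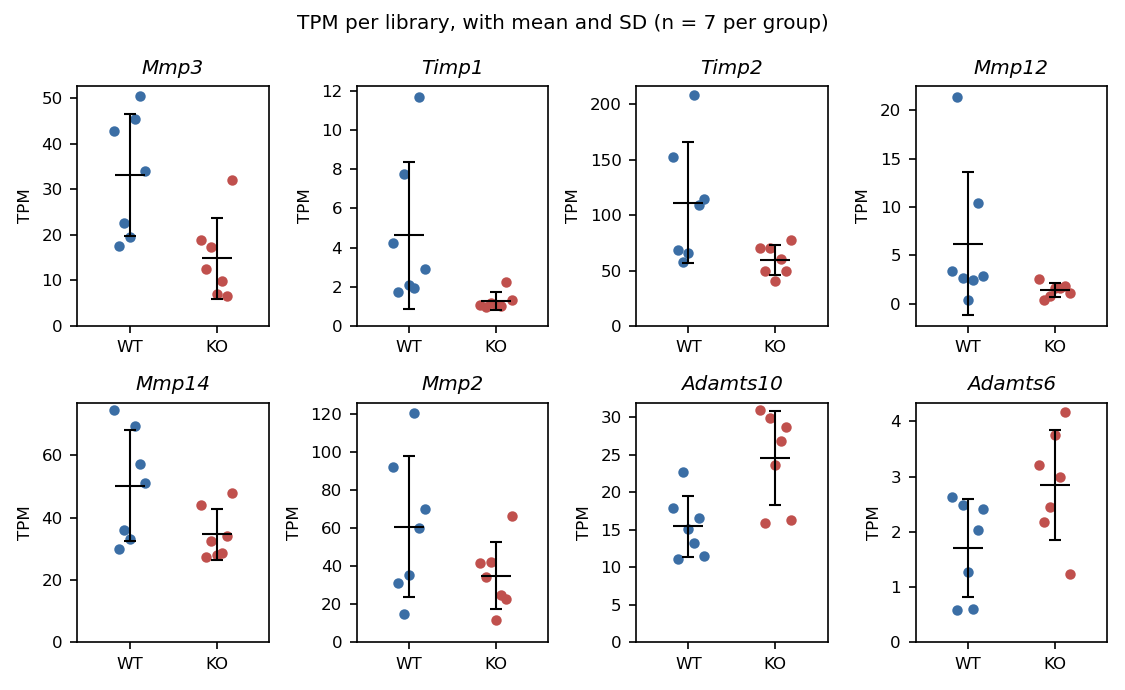
TPM of 8 members in each library, one point per library for WT (blue) and KO (red), with mean and SD (n = 7 per group) in black and a separate linear axis per gene. Timp1 is at 2.26 TPM or less in KO and at 1.72 TPM or more in WT, while Adamts10 is at 22.7 TPM or less in WT with 5 of 7 KO libraries above that.

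Timp1 (ENSMUSG00000001131), the inhibitor that is induced in inflamed and fibrotic tissue, was the least abundant Timp gene and the one with the clearest split. Its TPM values in KO replicates 1 to 7 were 1.09, 0.98, 1.18, 1.06, 1.00, 2.26 and 1.31. In WT replicates 3 to 9 they were 4.22, 1.72, 7.76, 2.08, 1.96, 11.7 and 2.89. The KO libraries were close together near 1 TPM, and 6 of 7 lay below every WT library, while WT libraries were spread wide, with replicates 5 and 8 highest. The log2 fold change of Timp1 was -1.09 ± 0.32 (SE; limma adjusted p = 0.24), which understates the change at this low level, and the exact permutation p was 0.0023. Without the 3 libraries with little Cd79a it was -1.40 (limma adjusted p = 0.20). Timp1 lies within Syn1 on the other strand in GENCODE M21 but shares no exon base with it, and Syn1 itself reached at most 0.4 TPM.

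Timp3 and Timp4 did not share this pattern. Timp3, which binds to the matrix and also inhibits Adamts and ADAM proteases, ran from 29.6 over 59.3 to 137 TPM in KO and from 17.9 over 69.9 to 172 TPM in WT (log2 fold change -0.02 ± 0.44, SE; limma adjusted p = 0.99). Timp4, an inhibitor known to be abundant in fat, ran from 13.6 over 45.4 to 169 TPM in KO and from 26.0 over 56.1 to 133 TPM in WT (log2 fold change -0.15 ± 0.46, SE; limma adjusted p = 0.89). The direction of both depends on the libraries used: the fold change was 0.16 for Timp3 and 0.14 for Timp4 when KO replicate 4 was left out, 0.22 and 0.06 when WT replicate 7 was, and 0.13 for Timp3 when WT replicate 9 was. It was also above 0 for Timp3 with quantile normalization (0.02) and with TPM rescaled without mitochondrially encoded genes (0.03). Exons of Timp3 share 1733 bases with Syn3 and those of Timp4 share 90 bases with Syn2, both on the other strand, and the handling of strand is not given in the sources used here. Syn3 reached 18.3 TPM and Syn2 10.6 TPM, so their reads cannot be told apart from those of the Timp genes where exons overlap.

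Among the other secreted Mmp proteases, 5 of 5 tested genes had lower values in KO and 0 were called by limma (1 at an unadjusted p under 0.05, Mmp12). Mmp12, the macrophage elastase, ran from 0.43 over 1.61 to 2.59 TPM in KO and from 0.37 over 2.92 to 21.4 TPM in WT. WT replicates 4 and 8, at 21.4 and 10.4 TPM, were far above the rest, and WT replicate 6 was the lowest of all libraries. The log2 fold change of Mmp12 was -1.08 ± 0.48 (SE; limma adjusted p = 0.42; exact permutation p = 0.053), and -0.74 without the 3 libraries with little Cd79a (limma adjusted p = 0.58). Mmp23, an Mmp protease whose domain list, like that of Mmp7, holds no hemopexin domain, ran from 8.12 over 14.03 to 16.06 TPM in KO. In WT 6 of 7 libraries lay above all KO libraries, between 18.8 and 26.4 TPM, but WT replicate 4 stood at 4.91 TPM, the lowest of the 14. The log2 fold change of Mmp23 was -0.42 ± 0.29 with all libraries (SE; limma adjusted p = 0.59), -0.70 without WT replicate 4, and -0.63 without the 3 libraries with little Cd79a (limma adjusted p = 0.27). Mmp19, Mmp27 and Mmp28 had log2 fold changes of -0.41 ± 0.29, -0.32 ± 0.23 and -0.25 ± 0.33 (SE). Exons of Mmp19 share 789 bases with Tmem198b, which reached 8.75 TPM. Those of Mmp28 share 466 bases with 1700020L24Rik, which reached 44.9 TPM, more than Mmp28 itself. Both other genes lie on the opposite strand, so reads from the shared bases cannot be told apart here either.

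The Adamts genes with the smallest p had higher values in KO. Adamts10 (ENSMUSG00000024299), which acts on fibrillin microfibrils, stood at 30.9, 15.8, 29.9, 23.6, 26.8, 28.6 and 16.3 TPM in KO replicates 1 to 7. In WT replicates 3 to 9 it stood at 17.9, 11.1, 22.7, 15.1, 13.2, 16.5 and 11.5 TPM. KO replicates 2 and 7 lay within the WT range, and the other 5 lay above it. The log2 fold change of Adamts10 was 0.63 ± 0.19 (SE; limma adjusted p = 0.25; exact permutation p = 0.011), and 0.60 without the 3 libraries with little Cd79a (limma adjusted p = 0.35). Adamts6, its closest relative in the family, ran from 1.23 over 2.99 to 4.16 TPM in KO and from 0.58 over 2.03 to 2.63 TPM in WT (log2 fold change 0.53 ± 0.25, SE; limma adjusted p = 0.43; exact permutation p = 0.058). For Adamts6, KO replicate 7 and WT replicates 4 and 7, the libraries with little Cd79a, were the lowest of their groups, and the fold change was 0.38 without them (limma adjusted p = 0.51). Both genes are among the 6 Adamts genes for which the deposited table lists the PLAC domain, of which Adamts3 was the only other one tested, with lower values in KO. Adamts7, which cleaves cartilage oligomeric matrix protein, ran from 0.95 over 1.34 to 2.43 TPM in KO and from 0.63 over 1.05 to 1.34 TPM in WT (log2 fold change 0.33 ± 0.16, SE; limma adjusted p = 0.44; exact permutation p = 0.032). Its exons share 122 bases with Tbc1d2b on the other strand, and at levels this close to 1 TPM the values are coarse.

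Procollagen processing and proteoglycan cleavage genes had lower or similar values. Adamts2, which removes the amino-terminal propeptide of fibrillar procollagens, ran from 2.16 over 7.15 to 14.1 TPM in KO and from 4.68 over 14.3 to 21.0 TPM in WT. For Adamts2, 3 of 7 KO libraries lay below all WT libraries and 4 of 7 WT libraries above all KO libraries (log2 fold change -0.74 ± 0.37, SE; limma adjusted p = 0.45; exact permutation p = 0.079). Adamts3, with the same substrate class, stood at 8.12 TPM in WT replicate 6 and at 2.07 TPM or less in the other libraries. Of the 4 tested proteases of aggrecan and versican, 3 had lower values and 0 stood at an unadjusted p under 0.05. Adamts1 ran from 3.37 over 5.75 to 12.2 TPM in KO and from 2.22 over 8.38 to 22.9 TPM in WT (log2 fold change -0.33 ± 0.39, SE; limma adjusted p = 0.73), and leaving out WT replicate 7 gave -0.09, leaving out WT replicate 6 -0.58, WT replicate 9 -0.17 and KO replicate 4 -0.21. Adamts5, its direct neighbour on chromosome 16, averaged 12.4 ± 9.8 TPM in KO libraries and 12.7 ± 5.5 in WT libraries (SD, 7 per group), and Adamts9 and Adamts15 had log2 fold changes of 0.19 ± 0.26 and -0.22 ± 0.27 (SE). Adamts12 was at 12.3 TPM in KO replicate 4 and at 7.08 TPM or less elsewhere.

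The 20 members that were not tested stood below 1 TPM in most libraries. Mmp1a and Mmp1b, the mouse interstitial collagenase genes, were listed at 0 in all 14 libraries, and 12 more stayed under 1 TPM in every library. The neutrophil collagenase gene Mmp8 reached 0.14 TPM and Mmp13 0.33 TPM, so 0 of 4 collagenase genes in the narrow sense were tested. The other 6 untested members passed 1 TPM in 1 to 3 libraries. Adamts13, the protease of von Willebrand factor, reached 5.15 TPM in KO replicate 4, Mmp7 1.96 TPM, Mmp17 and Adamts8 1.42 TPM each, Adamts17 1.32 TPM and Adamts14 1.27 TPM. Just inside the limit, Mmp27 and Adamts3 each stood at 1 TPM or more in 7 libraries.

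Fibroblast markers varied with Mmp2, Timp2, Mmp14, Mmp3 and Adamts2. Of 11 fibroblast and progenitor markers 11 were tested, 10 had lower values in KO, and none was at 0 in any library. Lower at an unadjusted limma p under 0.05 were 3 of the 11 (27.3%, beside 6.74% of all genes). Their summed level ran from 503 to 1553 TPM in KO and from 710 to 3030 TPM in WT. Relations between members and marker scores (the mean log2(TPM + 1) of a list) were computed over the 11 libraries with Cd79a at 10 TPM or more, each value centred on its group's mean, for 17 pairs chosen after the values were seen. Mmp2 and the fibroblast score had a Pearson r of 0.95 (permutation p = 1e-05, the smallest that 100000 resamples can give; adjusted p = 0.00017) and a Spearman rho of 0.97 (permutation p = 3e-05, adjusted p = 0.00026). Timp2 and this score had r = 0.97 (permutation p = 2e-05, adjusted p = 0.00017) and rho = 0.96 (permutation p = 2e-05, adjusted p = 0.00026). Without the 2 libraries farthest from the median score, r was 0.92 for Mmp2 and 0.94 for Timp2. The other members paired with this score followed less tightly, with r = 0.87 for Mmp14 (permutation p = 0.00049, adjusted p = 0.0017; rho = 0.83, permutation p = 0.0027, adjusted p = 0.0064; r = 0.80 without the 2 farthest). For Mmp3 the values were r = 0.85 (permutation p = 0.0015, adjusted p = 0.0037) and rho = 0.86 (permutation p = 0.0012, adjusted p = 0.0042), with r = 0.91 without the 2 farthest. For Adamts2 they were r = 0.875 (permutation p = 0.0006, adjusted p = 0.0017) and rho = 0.84 (permutation p = 0.0024, adjusted p = 0.0064), with r = 0.85 without the 2 farthest. Mmp2, Timp2, Mmp14, Mmp3 and Adamts2 were set against no other marker score, so whether the relation is particular to fibroblasts was not tested. Mmp2 and Timp2 varied together (r = 0.91, permutation p = 6e-05, adjusted p = 0.00034; rho = 0.95, permutation p = 7e-05, adjusted p = 0.0004; r = 0.89 without the 2 farthest). Mmp14 varied with Timp2 (r = 0.88, adjusted permutation p = 0.0017) and with Mmp2 (r = 0.73, adjusted permutation p = 0.017).

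Mmp3 and Timp1, the members with the smallest limma p, had no detected relation within groups (r = 0.18, permutation p = 0.59, adjusted p = 0.59; rho = 0.26, permutation p = 0.44, adjusted p = 0.44; r = -0.52 without the 2 farthest). With 11 libraries, and Timp1 only between 0.98 and 2.26 TPM in KO, this does not show that the 2 genes are unrelated. Timp4 varied with the adipocyte score (r = 0.81, permutation p = 0.0034, adjusted p = 0.0072; rho = 0.74, permutation p = 0.012, adjusted p = 0.021; r = 0.74 without the 2 farthest). For Timp3 and this score r was 0.41 (permutation p = 0.21, adjusted p = 0.22) and rho 0.35 (permutation p = 0.29, adjusted p = 0.30), with r = 0.27 without the 2 farthest. Adamts5 and Mmp28 had r = 0.68 and 0.78 with the adipocyte score (adjusted permutation p = 0.024 and 0.0094). Their rho was 0.63 and 0.62 (adjusted permutation p = 0.067 for both). The values of Mmp28 may hold reads of 1700020L24Rik, with which it shares 466 exon bases. Mmp9 followed the score of neutrophils and monocytes (r = 0.72, permutation p = 0.015, adjusted p = 0.021; rho = 0.75, permutation p = 0.0099, adjusted p = 0.021; r = 0.82 without the 2 farthest). This score rests on the 7 of 10 listed markers that were tested. Of these, 2 had lower and 5 higher values in KO (28.6% lower, beside 45.4% of all genes), while Mmp9 and Mmp25 had lower values. Camp, Ngp, Retnlg and S100a8 were at 0 in some library. Csf3r reached at most 3.25 and Cxcr2 5.17 TPM, but Ly6c2 262 TPM. Mmp25 and that score had r = 0.72 (permutation p = 0.012, adjusted p = 0.019) and rho = 0.49 (permutation p = 0.13, adjusted p = 0.17), but r = 0.15 without WT replicate 6 and KO replicate 2, so it rests on those libraries. Mmp12 and the macrophage score had r = 0.65 (permutation p = 0.032, adjusted p = 0.039) and rho = 0.44 (permutation p = 0.18, adjusted p = 0.22), and r was -0.01 without WT replicate 6 and KO replicate 2, so that relation rests on those libraries. The summed level of 10 macrophage markers ran from 558 to 1766 TPM in KO and from 399 to 2314 TPM in WT, with 9 of 10 lower in KO and none at 0. Of these 10, 4 stood lower at an unadjusted limma p under 0.05 (40.0%, beside 6.74% of all genes). Members measured in the same library share its tissue piece and depth.

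**Figure D5:**
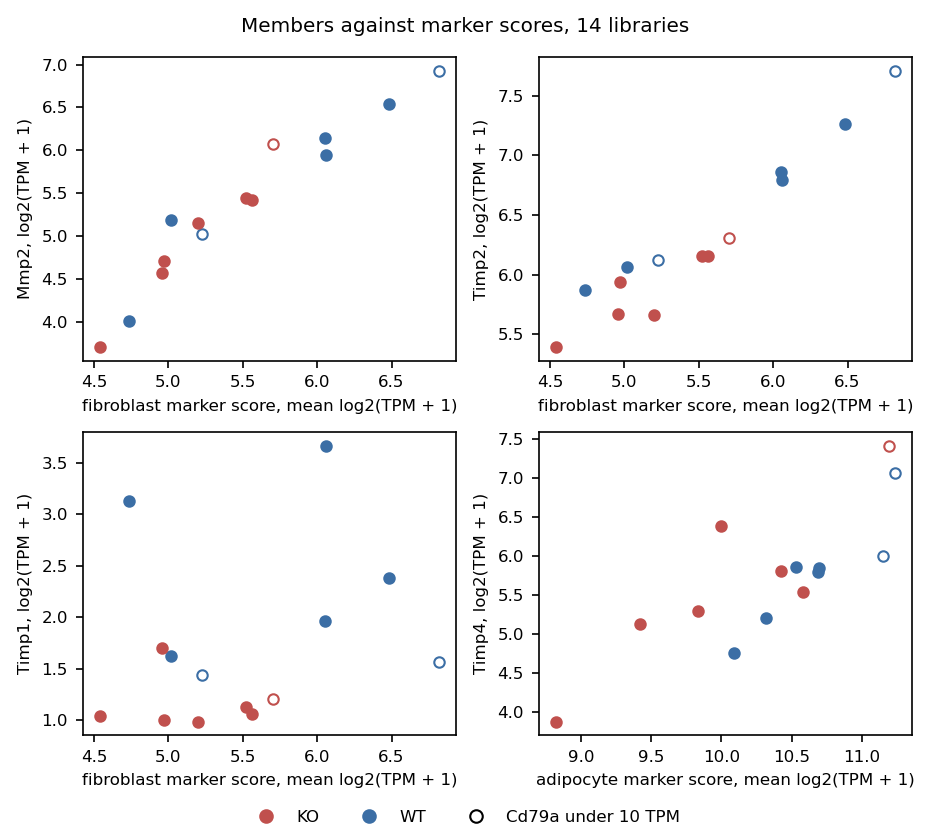
log2(TPM + 1) of Mmp2, Timp2 and Timp1 against the fibroblast marker score and of Timp4 against the adipocyte marker score, one point per library for WT (blue) and KO (red), with open points for the 3 libraries with Cd79a under 10 TPM. Mmp2 and Timp2 lie along a line through both groups. The KO points of Timp1 stay between 0.98 and 2.26 TPM over the KO range of the score, 4.54 to 5.71. WT scores reach 6.82, so no KO library covers the upper part of the range.

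A fit with the fibroblast score as a covariate, added after these values were seen, left the members in different places. The log2 fold change of Timp1 was -1.13 with it (limma adjusted p = 0.39) and that of Mmp12 -1.08 (adjusted p = 0.56), close to the values without it. Adamts10 was at 0.57 and Adamts7 at 0.43 (limma adjusted p = 0.45 for both). Mmp3 was at -0.67 (limma adjusted p = 0.42), Timp2 at -0.30 (adjusted p = 0.39), Mmp14 at -0.14 (adjusted p = 0.75) and Mmp2 at 0.10 (adjusted p = 0.87). With this covariate 11 of 26 tested members had lower values and their median log2 fold change was 0.11, beside 0.105 over all genes. At an unadjusted limma p under 0.05 stood 8 members, the same count as without the covariate, and 0 were called. The share of all genes at that p in this fit is not given. With the adipocyte score as a covariate, 12 of 26 had lower values, with a median of 0.11 beside -0.02 over all genes. In that fit Mmp2 was at -0.09, Adamts2 at -0.11, Mmp14 at -0.37, Timp2 at -0.55, Mmp3 at -0.80, Timp1 at -1.29 and Adamts10 at 0.41. Again 8 members stood at an unadjusted limma p under 0.05 and 0 were called, with the share of all genes at that p not given. The adipocyte markers themselves had lower values in 9 of 9 genes, with a summed level of 14281 to 62800 TPM in KO and 34071 to 65656 TPM in WT. Of these 9, 4 stood lower at an unadjusted limma p under 0.05 (44.4%, beside 6.74% of all genes). B-cell and T-cell markers had higher values in KO in 6 of 6 and 8 of 8 genes, with summed levels of 6.29 to 1776 and 19.2 to 816 TPM in KO and of 2.08 to 1286 and 5.94 to 821 TPM in WT. None of the B-cell and T-cell markers stood at an unadjusted p under 0.05, and 2 of the 3 libraries with little Cd79a are WT. Skeletal muscle markers had lower values in 7 of 7 genes, 0 at an unadjusted p under 0.05, with summed levels of 23.03 to 6488 TPM in KO and 35.2 to 20320 TPM in WT, and Mb was at 0 in at least 1 library. Adamts10, higher in KO like the lymphocyte markers, had r = 0.51 with the T-cell score (permutation p = 0.10, adjusted p = 0.12; rho = 0.41, permutation p = 0.22, adjusted p = 0.25; r = 0.51 without the 2 farthest). The part of B cells and muscle in the members' values was not tested.

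Other genes of matrix turnover were counted from lists set apart from the members. Over all genes tested, 45.4% had lower values, 0.0204% were called, and 6.74% stood lower and 4.67% higher at an unadjusted p under 0.05. Of 27 tested substrates of these proteases 26 had lower values in KO and 0 were called by limma (6 lower at an unadjusted p under 0.05), with a median log2 fold change of -0.48; 6 of the 31 listed genes are also fibroblast markers. Lama4, a laminin chain of vascular and adipocyte basement membranes, averaged 26.6 ± 12.7 TPM over KO libraries and 47.3 ± 12.1 over WT libraries (SD, 7 per group; log2 fold change -0.93 ± 0.31, SE; limma adjusted p = 0.30). Sparc, a collagen-binding matrix protein, had a log2 fold change of -0.78 ± 0.33 (SE), and Col6a1 and Col3a1 had -0.78 ± 0.33 and -0.87 ± 0.39. Of 9 tested inhibitors of other classes 7 had lower values and 0 were called (3 lower at an unadjusted p under 0.05). Cst3, the cysteine protease inhibitor cystatin C, averaged 1099 ± 188 TPM over KO libraries and 1564 ± 168 over WT libraries (SD, 7 per group; log2 fold change -0.52 ± 0.14, SE; limma adjusted p = 0.22), its highest KO library at 1405 and its lowest WT library at 1418 TPM, so the groups did not overlap, as for 0.319% of all genes. Serping1, the C1 inhibitor, and Serpinb6a had log2 fold changes of -0.77 ± 0.28 and -0.74 ± 0.24 (SE).

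Of 14 tested activators and plasminogen system genes 7 had lower and 7 higher values, 0 were called, and 3 stood at an unadjusted p under 0.05: Bsg, a cell-surface inducer of Mmp genes, and Lrp1, an endocytic receptor that clears proteases, with lower values, and Plgrkt, a plasminogen receptor, with higher values. Bsg averaged 311 ± 71 TPM over KO libraries and 447 ± 93 over WT libraries (SD; limma adjusted p = 0.28). The means of Plgrkt were 50.5 ± 7.3 and 38.5 ± 7.2 TPM (SD; limma adjusted p = 0.32). Of 19 tested matrix proteases of other families 13 had lower values, 0 were called and 2 stood at an unadjusted p under 0.05, both lower (10.5%, beside 11.4% of all genes). Htra1, a secreted serine protease, averaged 76.5 ± 26.9 TPM over KO libraries and 132 ± 23 over WT libraries (SD, 7 per group; log2 fold change -0.83 ± 0.21, SE; limma adjusted p = 0.21), and cathepsin B (Ctsb) had a log2 fold change of -0.63 ± 0.23 (SE). Of 4 tested ADAMTS-like genes, which lack a protease domain, 3 had lower values and 0 stood at an unadjusted p under 0.05.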

How the data were processed

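The authors deposited one table of TPM values per gene for adipose RNA in 14 libraries, each library scaled to the same total; TruSeq libraries were made from Trizol RNA, per the labels' protocols. Bowtie 0.12.2 and builds mm8 and mm9 are listed without a role, per the submitters' processing notes; the program behind the TPM values and the handling of strand were not given in the sources used here. TPM keeps no read counts, so depth is unknown and the spread between libraries is the error. Same-symbol rows were summed, 14719 genes that reached 1 TPM in 7 or more libraries were kept, and log2(TPM + 1) was compared between 7 KO and 7 WT libraries with limma 3.58.1 in R 4.3.3 (trend, robust prior, 2-sided), with Benjamini-Hochberg adjustment over all genes tested. Permutation p-values of single genes are exact over 3432 splits; the smallest possible is 0.000583. Relations between measures used 100000 resamples. The test was also run on simulated data, but its recovery there is not given, so the power with 7 against 7 libraries is not stated here. Members, roles and lists were chosen with earlier results of these data known. Members with full values were the 10 with the smallest p, the 8 with the highest mean TPM and the first by p of each role; others named were chosen after their values were seen. Promoters come from RefSeq (GRCm38.p6), gene order and exon overlaps from GENCODE M21. Alternatives were 26 planned fits and 2 added with marker scores as covariates; count models need read counts and were left out.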

Additional observations from a re-analysis of the deposited data

Results flagged for a closer look

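In 52 groups of 7 libraries (26 tested members in KO and in WT), 7 had a library far from the other 6 on the TPM scale. A chance rate of about 1 in 20 would hold only for independent groups of normally distributed values. Here the groups share the same 14 libraries, and 6 of the 7 flagged values are high ones. The chance rate for these data is therefore unknown, and the count does not show an excess. Adamts12 stood at 12.35 TPM in KO replicate 4 (next 4.68), Adamts5 at 32.72 TPM in KO replicate 7 (next 15.35) and Timp1 at 2.26 TPM in KO replicate 6 (next 1.31). Adamts3 stood at 8.12 TPM in WT replicate 6 (next 2.07), and Mmp11 and Timp4 at 10.1 and 132.83 TPM in WT replicate 7 (next 5.95 and 62.59). Mmp23 was the only one that stood out by a low value, at 4.91 TPM in WT replicate 4 (next 18.77). Of these 7 values, 4 are from libraries with Cd79a under 10 TPM (KO replicate 7, WT replicate 4, and WT replicate 7 for 2 genes).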

How the results depend on the processing

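With all 28 alternatives, no member crossed the threshold except with library weights, and the direction of Mmp3, Timp1, Timp2, Mmp12, Mmp14, Mmp23, Adamts2, Adamts6, Adamts7 and Adamts10 was the same in each that tested them, but not their size: Adamts2 was at -0.21 and -0.11 with the fibroblast and adipocyte covariates, Adamts6 at 0.16 with the second, and Mmp23 at -0.20 over the 10 libraries with shared numbers. Library weights gave 248 genes higher, 575 lower, 5 members called and 14 members at an unadjusted p under 0.05 (53.8%, beside 24.9% of all genes); the called members had log2 fold changes of 0.72 (Adamts10), -0.62 (Mmp14), -1.63 (Mmp3), -1.66 (Timp1) and -0.84 (Timp2), with limma adjusted p from 0.013 to 0.043; the cause was not tested. Genes called over the whole table were 0 higher and 3 lower; 0 higher and 1 lower with no filter or with rows as deposited; 3 and 5 with median-ratio scaling; 13 and 6 with quantile normalization; 2 and 4 with TPM rescaled without mitochondrially encoded genes; 0 lower without the 3 libraries with little Cd79a and with the fibroblast covariate; and 6 higher and 4 lower with the adipocyte covariate. With 1 library left out the count lower ran from 0 to 6, the members at an unadjusted p under 0.05 from 4 to 9, Timp3 from -0.32 to 0.22 and Timp4 from -0.45 to 0.14. Members at an unadjusted p under 0.05 were 5 with a pseudocount of 0.1 and 4 with a filter of 5 TPM, where 12 of 14 tested members had lower values. The median of the tested members ran from -0.37 to -0.11 with 1 library left out, and from -0.39 (library weights) to 0.11 (adipocyte covariate) over all alternatives. Timp3 was at 0.022 with quantile normalization, 0.03 without mitochondrially encoded genes, 0.092 without the 3 libraries, and 0.66 and 0.54 with the fibroblast and adipocyte covariates. With these covariates Timp4 was at 0.38 and 0.68, Adamts1 at 0.14 and 0.13, and members with lower values were 11 and 12 of 26; Mmp2 was at 0.10 with the first. The labels do not say whether same-numbered libraries are paired, so the 5 shared numbers are not taken as pairs. Same-numbered libraries deviated together for some numbers and not for others (correlations from -0.67 for number 4 to 0.80 for number 7). Both libraries of number 7 have little Cd79a, and of number 4 only the WT library does, so these correlations cannot decide on pairing. With the replicate number as a block over those 10 libraries, 0 genes were called lower, 5 members stood at an unadjusted p under 0.05 and Timp3 was at 0.10; without the block the same libraries gave 0, 3 and 0.10. Depth is unknown, and members near 1 TPM, such as Timp1 and Adamts7, are the least certain.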
